A study of Mus musculus with 18 samples.

Results

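The 28 genes described here make, sense and control cholesterol and fatty acids, and were measured in microglia and in the remaining cells of degenerating mouse retina, with and without added TGFB1. They were taken by symbol from a table of 54532 genes: each listed mouse symbol was matched to its Ensembl gene ID in the GENCODE M21 annotation, and all 28 were found. The retinas came from rd1 mice at postnatal day 30 on the FVB background. The rd1 allele causes early loss of rods, and every group carries it.

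TGFB1 microglia (7 libraries) and TGFB1 non-microglia (2 libraries) came from retinas given AAV8-TGFB1, a viral vector for transforming growth factor beta 1, together with AAV8-GFP, a vector for green fluorescent protein. GFP microglia (7 libraries) and GFP non-microglia (2 libraries) came from retinas given AAV8-GFP only, so all groups carry the GFP vector. Both were delivered under the retina. The retinas were dissociated with papain and the cells were sorted by antibody staining. Non-microglia are therefore a mixture of retinal cell types, and in these bulk libraries fewer cells of a type and less RNA per cell cannot be told apart.

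Cells make cholesterol from acetyl-CoA through mevalonate, farnesyl diphosphate, squalene and lanosterol, and they make fatty acids from acetyl-CoA and malonyl-CoA. The transcription factors SREBP-1 and SREBP-2, encoded by Srebf1 and Srebf2, drive these genes. When sterol in the membrane of the endoplasmic reticulum is low, the escort protein SCAP carries SREBP to the Golgi, where it is cleaved and released to the nucleus. When sterol is high, INSIG proteins hold SCAP back. The retina makes part of its own cholesterol and takes up the rest from the circulation, and microglia ingest lipid-rich remains of dying cells.

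Levels are given as CPM, counts for each 1000000 of a library's total after TMM scaling over all 18 libraries, and as mean ± SD where not said otherwise. Fold changes are log2 values ± standard error, and a gene is called when its edgeR quasi-likelihood adjusted p (Benjamini-Hochberg over all genes tested) is under 0.05. The libraries held 1582451 to 3064027 counts. The sort labels were checked against marker lists. The 10 microglia markers summed to 44286 ± 2259 CPM in TGFB1 microglia and 43199 ± 2376 CPM in GFP microglia, against 59.6 ± 3.38 CPM in TGFB1 non-microglia and 67.5 ± 3.18 CPM in GFP non-microglia. In non-microglia, Aif1, Fcrls and Siglech were at 0 in TGFB1 retinas, and C1qa and Fcrls were at 0 in GFP retinas. All 11 Müller glia markers had counts in every group, and they summed to 291 to 865 CPM in TGFB1 microglia and 395 to 1027 CPM in GFP microglia, against 17054 to 17658 CPM in TGFB1 non-microglia and 18869.9 to 19385 CPM in GFP non-microglia. Cone markers summed to 244 to 315 CPM in TGFB1 microglia and 249 to 389.5 CPM in GFP microglia, on average 36.1% and 19.6% of the non-microglia of the same treatment. Values of the single cone markers (Arr3, Opn1sw, Gnat2, Pde6h and Gngt2) are not given, so this sum does not show which cells its counts came from. Amacrine markers stood at 28.7% and 39.3% of the non-microglia. Ganglion cell markers had the larger mean in microglia, at 33.4 ± 9.34 CPM in TGFB1 microglia, against 20.8 ± 1.79 CPM in TGFB1 non-microglia, and 47.03 ± 14.4 CPM in GFP microglia, against 17.2 ± 7.66 CPM in GFP non-microglia. The part of these marker counts in the differences between the sorted fractions was not tested.

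Of the 28 genes, 22 have promoter windows in the RefSeq table used here (build GRCm38.p6), 30 in all. Each runs from 250 bases before to 50 bases after a start of the gene, and only the first window of a gene is printed. Stretches of 180 bases just before the start are shown for 3 genes that were called higher in microglia in at least one treatment (Hmgcs1, Mvd and Ebp) and for 3 that were called lower in both (Mvk, Fasn and Insig2), so that the letters can be set beside the direction. Capitals mark 3 motifs on either strand: TCACNCCA, one form of the sterol regulatory element that SREBP binds, CCAAT, the site of NF-Y, and GGGCGG, the GC box of Sp1. TCACNCCA and CCAAT can share their CCA letters. The stretches lie at chr13:119690171-119690350 (plus strand), chr8:122443423-122443602 (minus strand), chrX:8193513-8193692 (minus strand), chr5:114444089-114444268 (plus strand), chr11:120824548-120824727 (minus strand) and chr1:121332590-121332769 (minus strand), in that order and all outside the gene as GENCODE M21 gives it.
Hmgcs1: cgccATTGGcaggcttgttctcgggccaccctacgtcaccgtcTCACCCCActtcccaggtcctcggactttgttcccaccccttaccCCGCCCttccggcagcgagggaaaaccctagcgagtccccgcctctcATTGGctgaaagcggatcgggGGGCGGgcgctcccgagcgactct
Mvd: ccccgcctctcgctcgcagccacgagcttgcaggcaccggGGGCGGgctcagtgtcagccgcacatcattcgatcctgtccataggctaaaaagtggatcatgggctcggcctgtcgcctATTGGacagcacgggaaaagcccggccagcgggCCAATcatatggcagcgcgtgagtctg
Ebp: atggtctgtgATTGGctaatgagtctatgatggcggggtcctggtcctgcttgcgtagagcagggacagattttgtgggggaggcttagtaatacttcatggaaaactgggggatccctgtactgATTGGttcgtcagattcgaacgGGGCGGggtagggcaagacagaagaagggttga
Mvk: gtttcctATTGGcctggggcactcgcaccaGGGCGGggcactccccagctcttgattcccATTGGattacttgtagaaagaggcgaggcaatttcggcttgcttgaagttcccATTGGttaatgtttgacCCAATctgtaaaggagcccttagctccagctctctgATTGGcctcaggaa
Fasn: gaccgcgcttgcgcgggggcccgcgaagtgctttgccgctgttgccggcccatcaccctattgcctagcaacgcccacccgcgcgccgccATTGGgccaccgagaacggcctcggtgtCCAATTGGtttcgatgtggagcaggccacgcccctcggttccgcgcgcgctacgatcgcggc
Insig2: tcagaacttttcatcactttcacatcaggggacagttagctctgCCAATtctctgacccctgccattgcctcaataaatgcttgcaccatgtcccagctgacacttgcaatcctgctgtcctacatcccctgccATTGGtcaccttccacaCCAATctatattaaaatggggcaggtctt

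TCACNCCA was in the windows of 3 of the 22 genes (Hmgcs1, Msmo1 and Srebf2), or 13.6%, against 4.97% of the 27025 genes in the RefSeq table. CCAAT was in 19 of 22, or 86.4%, against 41.1% of all genes. GGGCGG was also in 19 of 22, or 86.4%, against 38.2% of all genes. A CCAAT or its reverse occurs in all 6 printed stretches, on both sides of the microglia comparison. GGGCGG or its reverse is in those of Hmgcs1, Mvd, Ebp and Mvk. It is also in windows 2 and 3 of Insig2, which are not printed, so its absence from a stretch depends on the start shown. These matches describe the letters in the window only.

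With TMM factors, the sorted fractions differed in opposite directions along the pathway. Most calls for cholesterol enzymes were higher in microglia, although that balance depends on scaling in both treatments. Most calls for control and fatty acid genes were lower. In TGFB1 retinas 11 of 28 genes were higher and 8 lower in microglia than in non-microglia, and in GFP retinas 12 were higher and 8 lower. Calls were frequent over all 15321 genes tested as well: 30.8% were higher and 34.4% lower in TGFB1 retinas, and 29.9% were higher and 34.2% lower in GFP retinas. The median log2 fold change of the 28 genes was 0.09 in TGFB1 retinas and 0.25 in GFP retinas, against -0.04 and -0.06 over all genes tested. The 2 contrasts share no library, though they share one estimate of spread. Of the 28 genes, 9 were higher in both treatments (Mvd, Fdps, Fdft1, Cyp51, Msmo1, Nsdhl, Ebp, Dhcr7 and Stard4), 8 were lower in both (Mvk, Insig2, Srebf1, Srebf2, Scap, Fasn, Scd1 and Scd2), and 0 were called in opposite directions. Scd1 is counted here although it entered the test only through the non-microglia. No share over all genes is given for calls in both treatments, so this agreement is not shown to be particular to the 28 genes. Of the 28, all microglia libraries lay above all non-microglia libraries for 9 genes in TGFB1 retinas and 10 in GFP retinas. They lay below them for 7 and 8, Scd1 included. Such separation was usual: over all genes tested it held for 30.0% above and 34.5% below in TGFB1 retinas, and 29.0% and 34.4% in GFP retinas. The lower calls rest partly on single non-microglia libraries: without TGFB1 non-microglia replicate 1, 7 genes were higher and 4 lower in TGFB1 retinas, without TGFB1 non-microglia replicate 2 there were 5 lower, and without GFP non-microglia replicate 1 there were 5 lower in GFP retinas. Whether each library is another animal is not in the labels, and the p-values therefore reflect spread among libraries that may be technical.

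These counts depend on the scaling between the fractions. With library totals in place of TMM factors, a setting chosen after seeing the data, the median log2 fold change over all genes shifted by -0.48 in TGFB1 retinas and by -0.50 in GFP retinas. Then 6 of the 28 genes were called higher and 14 lower in TGFB1 retinas, and 8 higher and 13 lower in GFP retinas. Of the 18 cholesterol enzymes, 5 were then higher and 7 lower in TGFB1 retinas, against 9 and 1 with TMM factors, and 7 were higher and 6 lower in GFP retinas, against 11 and 1 with TMM factors. RLE size factors, another scaling, gave 8 higher and 9 lower of the 28 genes in TGFB1 retinas, and 10 higher and 9 lower in GFP retinas. Stard4, Ebp, Cyp51, Dhcr7 and Fdps were called higher, and Fasn, Scd2, Srebf1 and Insig2 lower, in both treatments under every setting tried. Ratios of counts within a library do not depend on this scaling. The counts of the 18 cholesterol enzymes over those of the 4 fatty acid genes gave 10.9 ± 0.953 in TGFB1 microglia, against 1.88 ± 0.201 in TGFB1 non-microglia, and 10.3 ± 1.41 in GFP microglia, against 1.91 ± 0.116 in GFP non-microglia. The lowest microglia library of either treatment, at 7.71, was above the highest non-microglia library, at 2.02. This ratio rests largely on Scd2. Scd2 alone averaged 296 of the 403 CPM of the 4 fatty acid genes in TGFB1 non-microglia, and 277 of 404 CPM in GFP non-microglia. In TGFB1 microglia it averaged 36.5 of 101 CPM, and in GFP microglia 39.3 of 110 CPM.

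**Figure D1:**
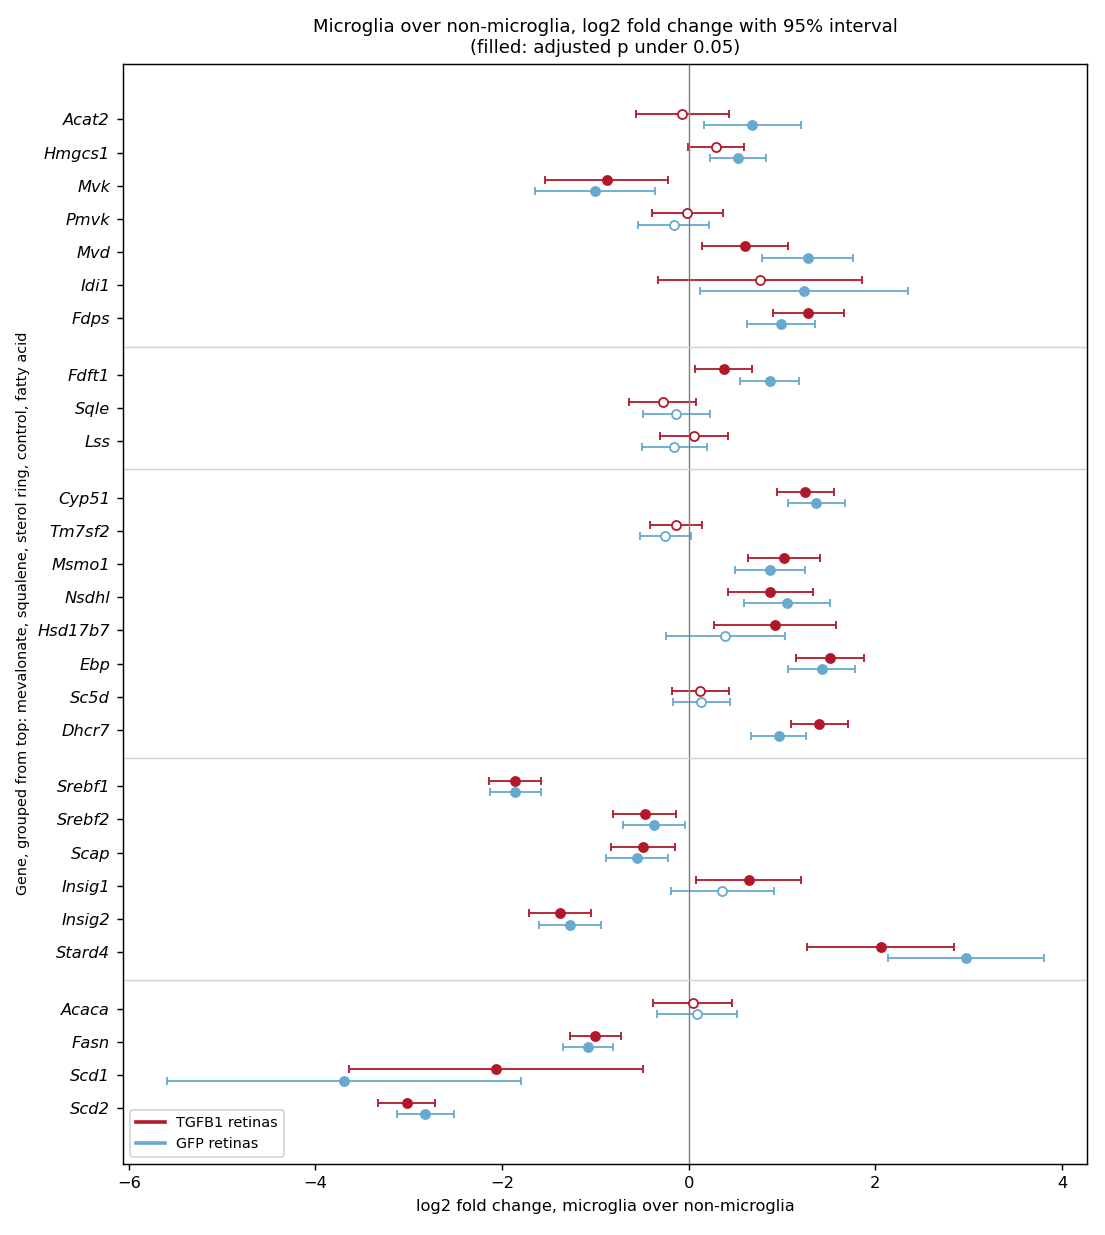
Log2 fold change of each gene, microglia over non-microglia, in TGFB1 retinas (dark red) and GFP retinas (blue), with 95% intervals; filled points have an adjusted p under 0.05. The values run from -3.70 for Scd1 to 2.97 for Stard4, both in GFP retinas, with sterol ring enzymes mostly to the right and fatty acid and control genes mostly to the left.

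The first steps, from acetyl-CoA to farnesyl diphosphate, were mixed. The 7 enzymes summed to 271 ± 34.5 CPM in TGFB1 microglia, against 212 ± 21.3 CPM in TGFB1 non-microglia, and to 294 ± 24.99 CPM in GFP microglia, against 207 ± 17.96 CPM in GFP non-microglia. Fdps makes farnesyl diphosphate, the branch point to sterols and to the lipid anchors of small GTPases. In TGFB1 retinas Fdps had 51.3, 56.7 and 76.99 CPM (lowest, median and highest of 7 libraries) in microglia, against 22.8 and 27.6 CPM in non-microglia. GFP microglia had 45.9, 65.02 and 71.3 CPM of Fdps, against 37.01 and 27.3 CPM in GFP non-microglia. All microglia libraries lay above all non-microglia libraries (log2 fold change 1.28 ± 0.18 in TGFB1 retinas, adjusted p = 1.54e-06, and 0.99 ± 0.18 in GFP retinas, adjusted p = 3.23e-05, edgeR). Exons of Gm43738, a predicted gene on the same strand, cover part of Fdps, and in all 26.7% of its exon bases are shared with other genes. Gm43738 was itself higher in microglia, at 75.01 and 76.1 CPM in TGFB1 and GFP microglia, against 26.5 and 29.2 CPM in TGFB1 and GFP non-microglia, so the Fdps reads cannot be assigned with certainty.

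Mvd, which removes the carboxyl group of mevalonate diphosphate, was also higher in microglia. Mvd had 17.1, 25.4 and 30.1 CPM in TGFB1 microglia, against 14.7 and 18.5 CPM in TGFB1 non-microglia, and 20.03, 26.98 and 32.7 CPM in GFP microglia, against 10.9 and 10.8 CPM in GFP non-microglia. The TGFB1 groups overlapped and the GFP groups did not (log2 fold change 0.60 ± 0.22 in TGFB1 retinas, adjusted p = 0.0208, and 1.28 ± 0.24 in GFP retinas, adjusted p = 4.86e-05, edgeR). The call in TGFB1 retinas was lost with RLE size factors, with no filter on low counts, with DESeq2, with library totals, and without TGFB1 non-microglia replicate 1. Mvk, the kinase that acts before it, went the other way. Mvk had 4.91, 11.7 and 16.8 CPM in TGFB1 microglia, against 19.6 and 21.8 CPM in TGFB1 non-microglia, and 6.37, 11.1 and 17.3 CPM in GFP microglia, against 24.4 and 21.9 CPM in GFP non-microglia. Every microglia library was below every non-microglia library (log2 fold change -0.88 ± 0.32 in TGFB1 retinas, adjusted p = 0.0183, and -1.003 ± 0.31 in GFP retinas, adjusted p = 0.00682, edgeR). The TGFB1 call was lost without either TGFB1 non-microglia library and the GFP call without GFP non-microglia replicate 1.

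Hmgcs1, which condenses acetyl-CoA units into HMG-CoA, was higher in GFP microglia, at 143 ± 13.6 CPM against 99.4 ± 11.5 CPM in GFP non-microglia (log2 fold change 0.53 ± 0.15, adjusted p = 0.00284, edgeR). In TGFB1 retinas it had 127 ± 21.4 CPM in microglia and 104 ± 9.16 CPM in non-microglia, and did not pass (adjusted p = 0.0809, edgeR). Without GFP non-microglia replicate 2 or with library totals its GFP call was lost. Of its exon bases 12.1% are shared with other genes, chiefly Gm48342 on the opposite strand, which had 39.6 and 48.3 CPM in TGFB1 and GFP microglia, against 32.1 and 31.4 CPM in TGFB1 and GFP non-microglia, so part of its reads is uncertain. Acat2, the cytosolic thiolase that starts the pathway, and Idi1, the isomerase of isopentenyl diphosphate, were also called in GFP retinas only, with log2 fold changes of 0.68 ± 0.25 and 1.23 ± 0.54 and edgeR adjusted p of 0.0211 and 0.0482. Both calls were lost with RLE size factors, no filter, DESeq2 or library totals. That of Acat2 was also lost without GFP non-microglia replicate 1. That of Idi1 was lost in 14 of 25 settings, 10 of them leaving out 1 library, and Idi1 had only 2 to 21 counts per library. Pmvk, the second mevalonate kinase, had 26.2 ± 3.67 and 24.3 ± 3.75 CPM in TGFB1 and GFP microglia, against 26.4 ± 3.15 and 27.00 ± 0.387 CPM in TGFB1 and GFP non-microglia. For Pmvk the 95% interval of the log2 fold change was -0.40 to 0.37 in TGFB1 retinas and -0.54 to 0.22 in GFP retinas.

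The 3 enzymes that lead to lanosterol gave 1 call in each treatment. Fdft1 is squalene synthase, the first enzyme committed to sterols. Fdft1 had 55.1, 60.6 and 68.4 CPM in TGFB1 microglia, against 45.7 and 49.4 CPM in TGFB1 non-microglia, and 59.1, 74.2 and 89.03 CPM in GFP microglia, against 47.9 and 34.3 CPM in GFP non-microglia. It was higher in microglia in both (log2 fold change 0.37 ± 0.15 in TGFB1 retinas, adjusted p = 0.032, and 0.87 ± 0.15 in GFP retinas, adjusted p = 2.42e-05, edgeR). The TGFB1 call of Fdft1 was lost in 7 of 24 settings. In 1 more, library totals, its TGFB1 log2 fold change was reversed to -0.11 and did not pass (adjusted p = 0.55, edgeR). Of its exon bases 18.3% are shared with other genes, chiefly Ctsb on the opposite strand, a lysosomal protease gene with 5292 and 4820.1 CPM in TGFB1 and GFP microglia, against 518 and 483 CPM in TGFB1 and GFP non-microglia. The strand setting of the counting is not given in the sources used here, so reads of the 2 genes cannot be told apart there. Sqle, the epoxidase of squalene, and Lss, which closes the ring to lanosterol, did not pass in either treatment. Sqle had 68.8 ± 13.3 CPM in TGFB1 microglia, against 83.8 ± 2.31 CPM in TGFB1 non-microglia, and 69.96 ± 11.8 CPM in GFP microglia, against 77.1 ± 6.10 CPM in GFP non-microglia. With library totals both Sqle and Lss were called lower in microglia in both treatments.

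Of the 8 enzymes that turn lanosterol into cholesterol, 6 were called higher in TGFB1 retinas and 5 in GFP retinas, and 0 were called lower. They summed to 654 ± 26.1 CPM in TGFB1 microglia, against 376 ± 23.5 CPM in TGFB1 non-microglia, and to 653 ± 71.1 CPM in GFP microglia, against 407 ± 36.8 CPM in GFP non-microglia. Cyp51 removes a methyl group from lanosterol. In TGFB1 retinas Cyp51 had 99.8, 119 and 134 CPM (lowest, median and highest of 7 libraries) in microglia, against 52.8 and 46.5 CPM in non-microglia. GFP microglia had 89.5, 118 and 147 CPM of Cyp51, against 48.2 and 44.8 CPM in GFP non-microglia. The microglia libraries all lay above the non-microglia libraries in both treatments (log2 fold change 1.25 ± 0.15 in TGFB1 retinas, adjusted p = 5.8e-08, and 1.37 ± 0.15 in GFP retinas, adjusted p = 1.48e-08, edgeR).

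Ebp, the isomerase that shifts a double bond in the sterol ring, showed the same order. In TGFB1 retinas Ebp had 57.3, 66.8 and 80.6 CPM (lowest, median and highest of 7 libraries) in microglia, against 19.6 and 27.3 CPM in non-microglia. GFP microglia had 60.1, 67.6 and 86.5 CPM of Ebp, against 24.4 and 26.6 CPM in GFP non-microglia. The fractions did not overlap (log2 fold change 1.51 ± 0.18 in TGFB1 retinas, adjusted p = 4.75e-08, and 1.42 ± 0.17 in GFP retinas, adjusted p = 1.01e-07, edgeR). Dhcr7 reduces the last precursor to cholesterol in one branch of the pathway. Dhcr7 had 106, 129 and 147 CPM in TGFB1 microglia, against 56.1 and 41.3 CPM in TGFB1 non-microglia, and 109, 132 and 143 CPM in GFP microglia, against 72.6 and 58.3 CPM in GFP non-microglia. Its fractions did not overlap either (log2 fold change 1.40 ± 0.15 in TGFB1 retinas, adjusted p = 1.2e-08, and 0.96 ± 0.14 in GFP retinas, adjusted p = 2.41e-06, edgeR).

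Msmo1 and Nsdhl act one after the other to strip methyl groups from the ring. Msmo1 had 111, 132 and 146 CPM in TGFB1 microglia, against 70.1 and 58.8 CPM in TGFB1 non-microglia, and 74.2, 132 and 151 CPM in GFP microglia, against 79.3 and 61.96 CPM in GFP non-microglia. Msmo1 was higher in microglia in both treatments (log2 fold change 1.02 ± 0.19 in TGFB1 retinas, adjusted p = 4.22e-05, and 0.87 ± 0.18 in GFP retinas, adjusted p = 0.00023, edgeR), and 1 GFP microglia library, replicate 2, lay among the non-microglia values. Nsdhl had 28.3, 41.3 and 48.5 CPM in TGFB1 microglia, against 24.8 and 19.2 CPM in TGFB1 non-microglia, and 28.3, 38.4 and 52.3 CPM in GFP microglia, against 22.9 and 15.8 CPM in GFP non-microglia. Nsdhl was also higher in both (log2 fold change 0.87 ± 0.22 in TGFB1 retinas, adjusted p = 0.00132, and 1.05 ± 0.22 in GFP retinas, adjusted p = 0.000235, edgeR). With library totals the call of Msmo1 in GFP retinas and of Nsdhl in TGFB1 retinas was lost.

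Hsd17b7, the sterol ketone reductase that acts next, was called in TGFB1 retinas only. It had 13.4 ± 3.43 CPM in TGFB1 microglia, against 7.16 ± 0.479 CPM in TGFB1 non-microglia (log2 fold change 0.92 ± 0.32, adjusted p = 0.0133, edgeR). In GFP retinas it had 10.5 ± 2.47 CPM in microglia and 7.98 ± 0.339 CPM in non-microglia (log2 fold change 0.39 ± 0.31, adjusted p = 0.276, edgeR). The TGFB1 call was lost without either TGFB1 non-microglia library and with library totals. The remaining ring enzymes did not pass in either treatment. Tm7sf2, a sterol reductase, had log2 fold changes of -0.14 ± 0.13 in TGFB1 retinas and -0.25 ± 0.13 in GFP retinas. Sc5d, the sterol desaturase, had 0.13 ± 0.15 and 0.13 ± 0.15 in the same order. With library totals both were called lower in microglia in both treatments. Of the Tm7sf2 exon bases 12.1% are shared with other genes, chiefly Vps51.

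**Figure D2:**
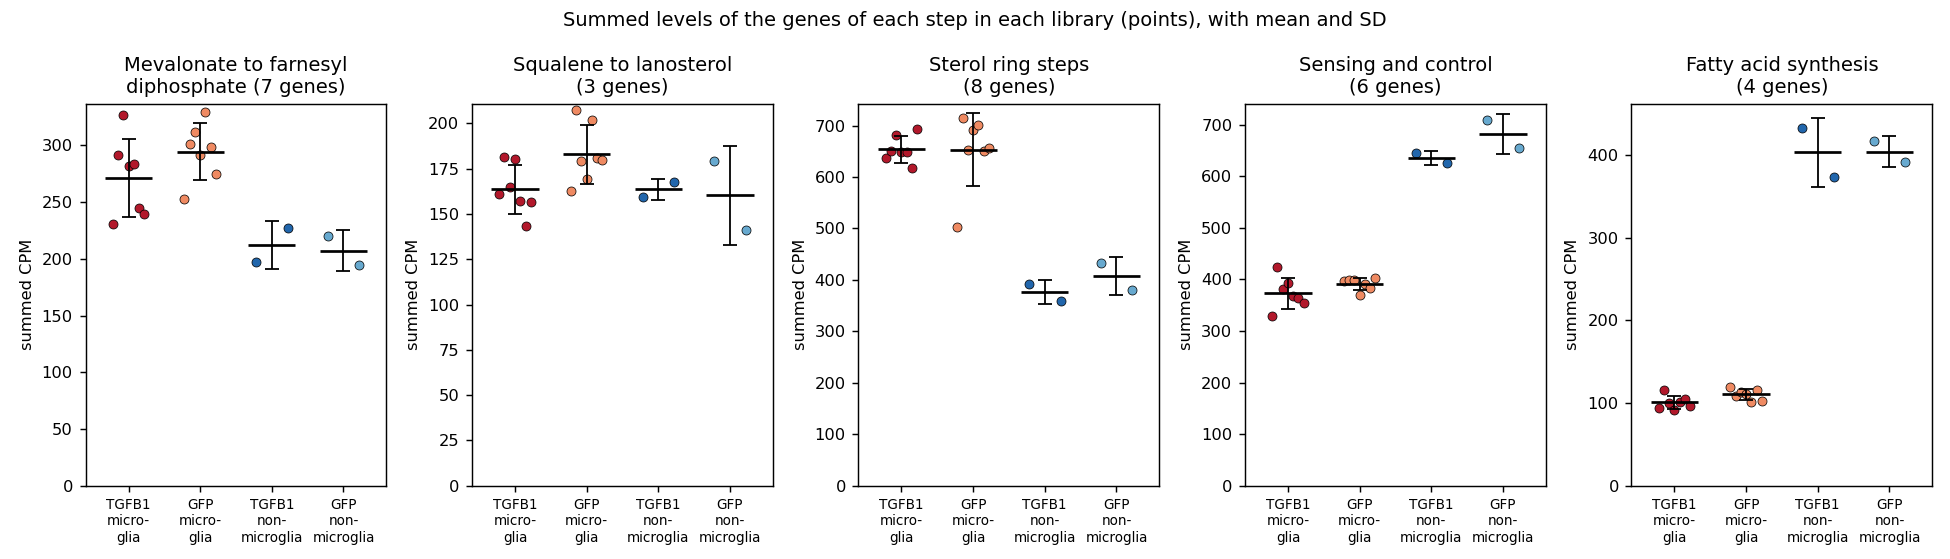
Summed CPM of the genes of each step in every library (points), with mean and SD, for TGFB1 microglia, GFP microglia, TGFB1 non-microglia and GFP non-microglia. Sterol ring enzymes averaged 654 and 653 CPM in the microglia groups and 376 and 407 CPM in the non-microglia groups, while fatty acid genes averaged 101 and 110.2 CPM against 403 and 404 CPM. Scd2 alone averaged 296 and 277 CPM in the non-microglia groups.

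The genes that sense sterol and control the pathway were mostly lower in microglia, 4 of 6 in each treatment. Srebf1, the factor tied mainly to fatty acid genes, had the smallest p of them. In TGFB1 retinas Srebf1 had 62.4, 78.4 and 105 CPM (lowest, median and highest of 7 libraries) in microglia, against 284 and 286 CPM in non-microglia. GFP microglia had 75.4, 85.6 and 109 CPM of Srebf1, against 353 and 283 CPM in GFP non-microglia. No microglia library reached the non-microglia range (log2 fold change -1.86 ± 0.13 in TGFB1 retinas, adjusted p = 1.05e-11, and -1.86 ± 0.13 in GFP retinas, adjusted p = 8.76e-12, edgeR). Srebf2, the factor tied mainly to cholesterol genes, differed less. Srebf2 had 62.2, 89.03 and 119.6 CPM in TGFB1 microglia, against 125 and 113 CPM in TGFB1 non-microglia, and 75.9, 91.4 and 107 CPM in GFP microglia, against 109 and 133 CPM in GFP non-microglia. Its fractions overlapped in TGFB1 retinas and not in GFP retinas (log2 fold change -0.47 ± 0.16 in TGFB1 retinas, adjusted p = 0.0138, and -0.37 ± 0.16 in GFP retinas, adjusted p = 0.0489, edgeR), and the call in GFP retinas was lost in 14 of 25 settings, 12 of them leaving out 1 library. In TGFB1 retinas the call was lost without TGFB1 non-microglia replicate 1. Within libraries, Srebf1 counts over Srebf2 counts were 0.963 ± 0.340 in TGFB1 microglia, against 2.39 ± 0.179 in TGFB1 non-microglia, and 0.948 ± 0.166 in GFP microglia, against 2.69 ± 0.799 in GFP non-microglia. The microglia ratios all lay below the non-microglia ratios.

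Scap, the escort of SREBP, was lower in microglia, with 46.7 ± 7.40 CPM in TGFB1 microglia, against 65.9 ± 0.0564 CPM in TGFB1 non-microglia, and 52.1 ± 9.77 CPM in GFP microglia, against 76.4 ± 2.39 CPM in GFP non-microglia (log2 fold change -0.49 ± 0.17 in TGFB1 retinas, adjusted p = 0.0127, and -0.56 ± 0.16 in GFP retinas, adjusted p = 0.00445, edgeR). Of its exon bases 13.2% are shared with other genes. Each call was lost when a non-microglia library of that treatment was left out, either one in TGFB1 retinas and replicate 1 in GFP retinas.

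The 2 INSIG genes, which hold SCAP back when sterol is high, did not move together. In TGFB1 retinas Insig2 had 23.9, 37.6 and 43.8 CPM (lowest, median and highest of 7 libraries) in microglia, against 94.6 and 89.02 CPM in non-microglia. GFP microglia had 28.3, 35.1 and 42.2 CPM of Insig2, against 83.1 and 91.6 CPM in GFP non-microglia. Insig2 was lower in every microglia library than in every non-microglia library (log2 fold change -1.38 ± 0.16 in TGFB1 retinas, adjusted p = 4.46e-08, and -1.27 ± 0.16 in GFP retinas, adjusted p = 1.67e-07, edgeR). In TGFB1 retinas Insig1 had 103, 108 and 116 CPM (lowest, median and highest of 7 libraries) in microglia, against 73.4 and 66.3 CPM in non-microglia. GFP microglia had 35.3, 105 and 118 CPM of Insig1, against 84.9 and 68.4 CPM in GFP non-microglia. All TGFB1 microglia were above the TGFB1 non-microglia, while GFP microglia replicate 5, at 35.3 CPM, was the lowest of all 18 libraries. Insig1 passed in TGFB1 retinas and not in GFP retinas (log2 fold change 0.64 ± 0.27 in TGFB1 retinas, adjusted p = 0.0433, and 0.36 ± 0.26 in GFP retinas, adjusted p = 0.242, edgeR). Without that library the log2 fold change was 0.64 ± 0.11 in TGFB1 retinas (adjusted p = 1.63e-05) and 0.50 ± 0.11 in GFP retinas (adjusted p = 0.000307, edgeR). The TGFB1 call was lost in 14 of 24 settings, 11 of them leaving out 1 other library. With library totals Insig1 had log2 fold changes of 0.16 in TGFB1 retinas and -0.14 in GFP retinas and did not pass in either.

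Set against each other within a library, Insig1 counts over Insig2 counts gave 3.19 ± 0.580 in TGFB1 microglia, against 0.760 ± 0.0222 in TGFB1 non-microglia. In GFP retinas the ratio was 2.84 ± 1.06 in microglia, against 0.884 ± 0.194 in non-microglia. Insig1 is itself an SREBP target in mammals. The ratio in the microglia libraries other than GFP replicate 5 was 2.37 or more, and it was at most 1.02 in the non-microglia.

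**Figure D3:**
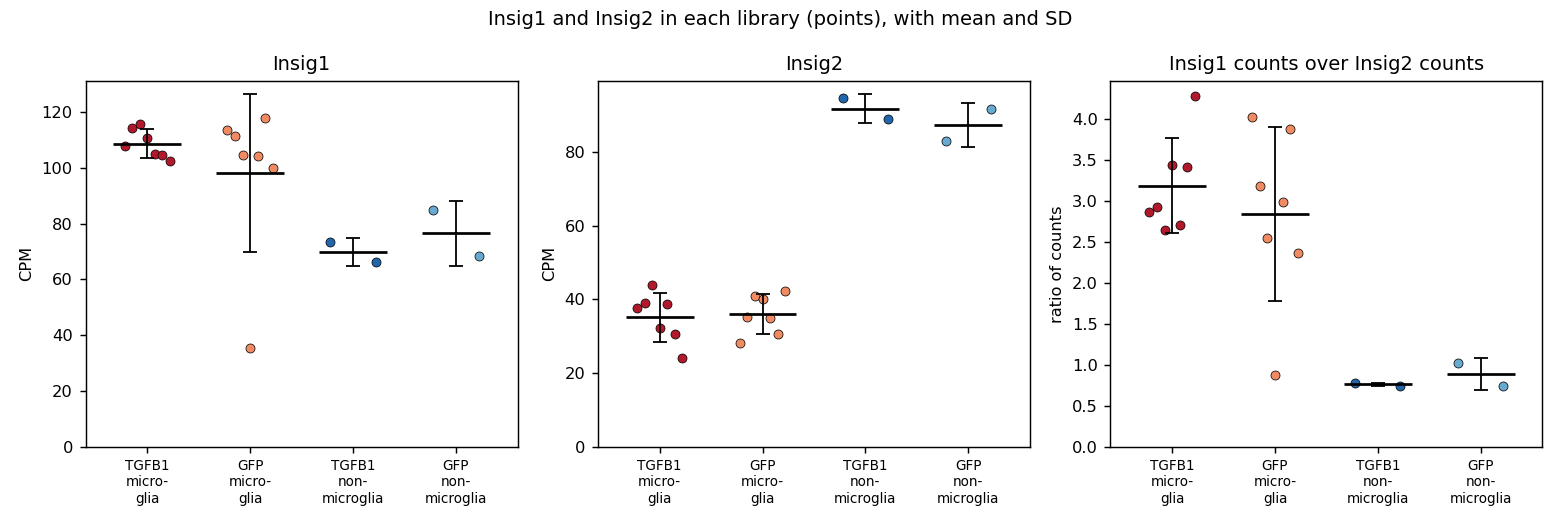
Insig1 (CPM), Insig2 (CPM) and the ratio of their counts in every library (points), with mean and SD, for TGFB1 microglia, GFP microglia, TGFB1 non-microglia and GFP non-microglia. The ratio ran from 2.64 to 4.29 in TGFB1 microglia and from 0.880 to 4.02 in GFP microglia, where replicate 5 is the lowest, and lay at 0.745 to 0.776 and 0.746 to 1.02 in TGFB1 and GFP non-microglia.

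Stard4, a carrier of cholesterol between membranes, was the control gene that was higher in microglia in both treatments. In TGFB1 retinas Stard4 had 12, 19.3 and 23.9 CPM (lowest, median and highest of 7 libraries) in microglia, against 2.94 and 5.85 CPM in non-microglia. GFP microglia had 14.7, 25.1 and 35.3 CPM of Stard4, against 1.76 and 4.38 CPM in GFP non-microglia. The fractions did not overlap (log2 fold change 2.05 ± 0.38 in TGFB1 retinas, adjusted p = 4.56e-05, and 2.97 ± 0.40 in GFP retinas, adjusted p = 6.41e-07, edgeR). The non-microglia values rest on 6 to 18 counts per library, and over all settings tried the log2 fold change ran from 1.57 to 2.66 in TGFB1 retinas and from 2.47 to 3.74 in GFP retinas.

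Of the 4 fatty acid genes, Fasn and Scd2 were lower in microglia in each treatment, Acaca did not pass, and the call of Scd1 rests on the filter. Fasn is the synthase that builds palmitate. In TGFB1 retinas Fasn had 31.8, 39.8 and 47.7 CPM (lowest, median and highest of 7 libraries) in microglia, against 83.8 and 77.00 CPM in non-microglia. GFP microglia had 41.9, 48.7 and 54.5 CPM of Fasn, against 106 and 99.3 CPM in GFP non-microglia. No microglia library reached the non-microglia range of its treatment (log2 fold change -1.002 ± 0.13 in TGFB1 retinas, adjusted p = 4.71e-07, and -1.08 ± 0.13 in GFP retinas, adjusted p = 8.37e-08, edgeR). Scd2 is a desaturase that makes oleate and palmitoleate, and in mice the main form in brain. In TGFB1 retinas Scd2 had 25.1, 33.9 and 50.01 CPM (lowest, median and highest of 7 libraries) in microglia, against 317 and 275 CPM in non-microglia. GFP microglia had 35.5, 39.5 and 44.8 CPM of Scd2, against 286 and 269 CPM in GFP non-microglia. The fractions were 8.12-fold apart in TGFB1 retinas and 7.07-fold apart in GFP retinas (log2 fold change -3.02 ± 0.15 in TGFB1 retinas, adjusted p = 4.64e-15, and -2.82 ± 0.15 in GFP retinas, adjusted p = 1.69e-14, edgeR).

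Scd1, the desaturase best known from liver and fat, was near the limit of counting. It had 0 to 5 counts in TGFB1 microglia libraries, against 10 and 14 in TGFB1 non-microglia, and 0 to 2 in GFP microglia, against 7 and 12 in GFP non-microglia. It passed the filter on low counts only through the non-microglia, so it had to differ and its call supports nothing. Its log2 fold changes of -2.07 ± 0.76 and -3.70 ± 0.92 depend on the prior count and are no measure of size. The TGFB1 call was lost with DESeq2 and without either TGFB1 non-microglia library. Acaca, the acetyl-CoA carboxylase that supplies malonyl-CoA, had 23.3 ± 3.48 and 22.5 ± 3.35 CPM in TGFB1 and GFP microglia, against 22.6 ± 5.35 and 21.01 ± 3.52 CPM in TGFB1 and GFP non-microglia. It did not pass in either treatment, with 95% intervals of -0.39 to 0.47 in TGFB1 retinas and -0.34 to 0.51 in GFP retinas on the log2 scale.

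**Figure D4:**
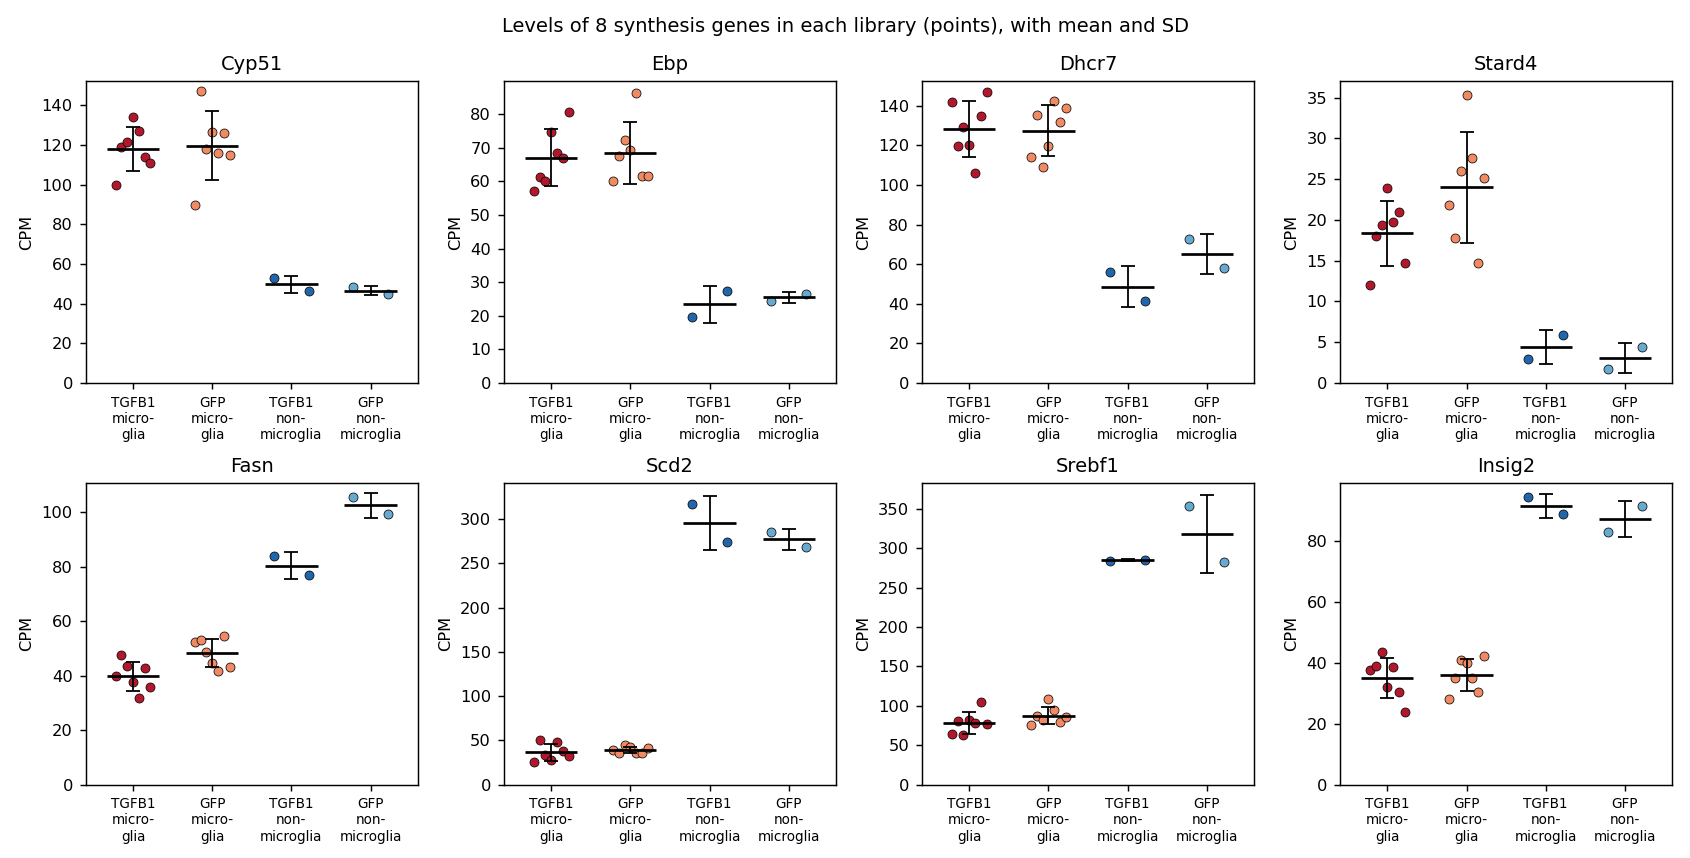
CPM of 8 genes in every library (points), with mean and SD, for TGFB1 microglia, GFP microglia, TGFB1 non-microglia and GFP non-microglia. Cyp51, Ebp, Dhcr7 and Stard4 are higher in every microglia library than in any non-microglia library of the same treatment, and Fasn, Scd2, Srebf1 and Insig2 are lower. Over all genes tested such separation held for 30.0% above and 34.5% below in TGFB1 retinas, and 29.0% and 34.4% in GFP retinas.

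Levels of different genes were compared within a group only, as counts per kilobase of exon scaled to a sum of 1000000. In TGFB1 microglia the highest were Insig1 at 74.2 ± 6.11, Ebp at 61.2 ± 8.69, Hmgcs1 at 57.9 ± 7.20 and Cyp51 at 56.1 ± 2.81, and the last 3 had overlapping spreads. In GFP microglia Insig1 had 65.7 ± 20.1, Hmgcs1 64.1 ± 7.13, Ebp 60.8 ± 8.80 and Cyp51 55.5 ± 7.49, with overlapping spreads. In TGFB1 non-microglia Scd2 at 178 ± 19.3 and Srebf1 at 166 ± 0.217 came first, and in GFP non-microglia Srebf1 at 189 ± 36.03 and Scd2 at 169.9 ± 12.9. Scd1 was the lowest of the 28 in both microglia groups, at 0.416 ± 0.449 in TGFB1 microglia and 0.0669 ± 0.121 in GFP microglia. In non-microglia Stard4, Scd1 and Idi1 were the lowest and lay within their spreads, at 2.58 ± 1.20, 2.63 ± 0.642 and 2.75 ± 1.32 in TGFB1 non-microglia and 1.82 ± 1.04, 2.07 ± 0.888 and 2.36 ± 1.12 in GFP non-microglia.

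TGFB1 was then compared with GFP within each fraction, the question that the vectors pose. In microglia none of the 27 genes that passed the filter was called by edgeR, and none by DESeq2, against 0.237% of 10970 genes called higher and 0.0729% called lower. Scd1 did not pass the filter. The values of all 28 genes overlapped between the treatments. Such overlap was usual: over all genes tested, all TGFB1 values lay above all GFP values for 0.182% and below them for 0.0365%. At an unadjusted p under 0.05 there were 3 genes, all lower with TGFB1, against 6.65% of all genes tested. Of the 27 log2 fold changes 20 were below 0, against 5409 of 10970 over all genes tested, with a median of -0.06 against 0.00. The 27 signs come from the same libraries and are not independent, and their count was not tested. In 23 of the 27 the 95% interval lay within a 1.5-fold change in either direction, and in all 27 within a 2-fold change. Of the 10970 genes tested, this held for 7595 and 10327 in the same order.

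The 3 genes were Fdft1, Fasn and Stard4. Fdft1 had 55.1, 60.6 and 68.4 CPM (lowest, median and highest) in TGFB1 microglia, against 59.1, 74.2 and 89.03 CPM in GFP microglia (log2 fold change -0.30 ± 0.09, adjusted p = 0.333, edgeR). Fasn had 31.8, 39.8 and 47.7 CPM in TGFB1 microglia, against 41.9, 48.7 and 54.5 CPM in GFP microglia (log2 fold change -0.28 ± 0.11, adjusted p = 0.566, edgeR). Stard4 had 12, 19.3 and 23.9 CPM in TGFB1 microglia, against 14.7, 25.1 and 35.3 CPM in GFP microglia (log2 fold change -0.38 ± 0.18, adjusted p = 0.744, edgeR). The other 24 tested genes had log2 fold changes from -0.29 for Acat2 to 0.36 for Hsd17b7. Cyp51 (-0.20 to 0.15), Dhcr7 (-0.16 to 0.17) and Ebp (-0.24 to 0.17) had 95% intervals on both sides of 0. Insig1 had 103, 108 and 116 CPM in TGFB1 microglia, against 35.3, 105 and 118 CPM in GFP microglia, and its log2 fold change of 0.14 ± 0.19 became -0.00 ± 0.07 without GFP microglia replicate 5.

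**Figure D5:**
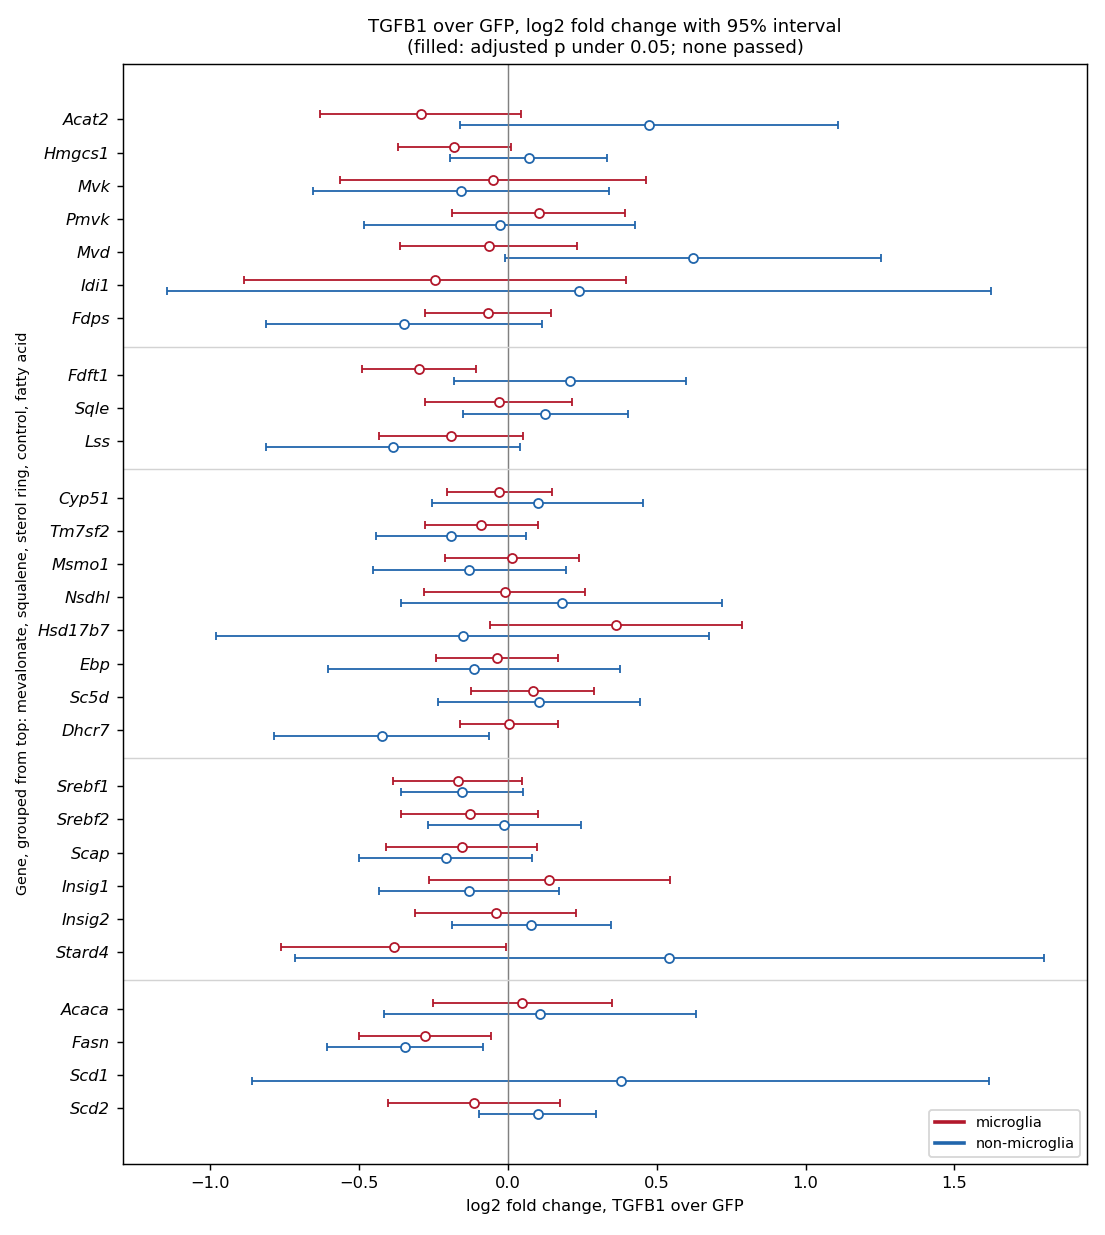
Log2 fold change of each gene, TGFB1 over GFP, in microglia (dark red) and non-microglia (blue), with 95% intervals; no gene had an adjusted p under 0.05, and Scd1 was not tested in microglia. In microglia the points run from -0.38 for Stard4 to 0.36 for Hsd17b7.

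In non-microglia, with 2 libraries a group, none of the 28 genes was called by edgeR and none by DESeq2, against 0.338% of 13598 genes called higher and 0.0515% called lower. At an unadjusted p under 0.05 there were 2, Fasn and Dhcr7, against 7.63% of all genes tested. Fasn had 83.8 and 77.00 CPM in TGFB1 non-microglia, against 106 and 99.3 CPM in GFP non-microglia (log2 fold change -0.34 ± 0.13, adjusted p = 0.455, edgeR). Dhcr7 had 56.1 and 41.3 CPM in TGFB1 non-microglia, against 72.6 and 58.3 CPM in GFP non-microglia (log2 fold change -0.42 ± 0.17, adjusted p = 0.555, edgeR). Both TGFB1 values were below both GFP values for each of these genes. Over all 28, both TGFB1 values lay above both GFP values for 3 genes and below them for 7; over all genes tested this held for 17.5% and 18.9%. Of the 28 genes, 13 had a 95% interval within a 1.5-fold change, against 4652 of the 13598 genes tested. The intervals of the others reached past that size.

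Marker sums of cones, bipolar cells and rods in the non-microglia did not overlap between the treatments, with 2 libraries a group and no test. Those of amacrine cells overlapped, at 44.8 to 56.7 CPM in TGFB1 non-microglia, against 48.5 to 68.1 CPM in GFP non-microglia. Ganglion cell sums overlapped too, at 19.6 to 22.1 CPM, against 11.8 to 22.6 CPM. For single genes, both TGFB1 values lay above both GFP values in 17.5% of all genes tested and below them in 18.9%. The 5 cone markers, all with counts in both groups, summed to 626 to 903 CPM in TGFB1 non-microglia, against 1430.5 to 1645 CPM in GFP non-microglia. The 8 bipolar markers, all with counts, summed to 2024 to 2311 CPM in TGFB1 non-microglia, against 1327 to 1412 CPM in GFP non-microglia. The 5 rod markers summed to 172 to 228 CPM in TGFB1 non-microglia, against 283 to 375 CPM in GFP non-microglia, with Nrl at 0 in both. Their part in the values of Fasn and Dhcr7 was not tested.

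The difference of the TGFB1 effects, microglia minus non-microglia, was called for none of the 28 genes by edgeR or DESeq2, against 0% of 15321 genes called higher and 0.0131% called lower. At an unadjusted p under 0.05 there were 4 genes: Acat2 (-0.75 ± 0.35), Mvd (-0.67 ± 0.32), Fdft1 (-0.50 ± 0.21) and Dhcr7 (0.44 ± 0.20), given as differences of log2 fold changes, each with an edgeR adjusted p of 1. Over all genes tested, 4.64% were at such a p. The half-width of the 95% interval had a median of 0.51 over the 28 genes.

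Other genes of lipid synthesis were counted from 3 wider lists. None of their tested genes was called for TGFB1 against GFP in either fraction by edgeR. The numbers with an unadjusted p under 0.05 were 0 sterol, 0 fatty acid and 2 liver X receptor genes in microglia, and 0, 2 and 0 in non-microglia. Over all genes tested the share was 6.65% in microglia and 7.63% in non-microglia. Of 15 further sterol and isoprenoid genes, 7 were higher and 3 lower in microglia of TGFB1 retinas, and 5 higher and 4 lower in GFP retinas. Over all genes tested, 30.8% were higher and 34.4% lower in TGFB1 retinas, and 29.9% and 34.2% in GFP retinas. Soat1, which stores cholesterol as esters, had 226 ± 24.8 CPM in TGFB1 microglia, against 73.1 ± 7.33 CPM in TGFB1 non-microglia, and 210.4 ± 23.3 CPM in GFP microglia, against 74.8 ± 11.4 CPM in GFP non-microglia (log2 fold change 1.63 ± 0.14 and 1.49 ± 0.14, adjusted p = 2.99e-10 and 1.22e-09, edgeR). Tmem97 and Erlin1, membrane proteins of the endoplasmic reticulum, were also higher in both treatments, with log2 fold changes of 1.23 and 1.53 in TGFB1 retinas and 1.71 and 1.34 in GFP retinas.

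Of 27 further fatty acid genes 25 were tested, and 6 were higher and 15 lower in microglia of TGFB1 retinas, and 7 higher and 15 lower in GFP retinas. The shares over all genes tested were 30.8% higher and 34.4% lower in TGFB1 retinas, and 29.9% and 34.2% in GFP retinas. In each treatment 7 of the 15 lower genes (Acacb, Elovl2, Elovl6, Elovl7, Fads3, Hacd1 and Me1) failed the filter within microglia and were tested only through the non-microglia, so they had to differ and their calls support nothing. Acly, which makes cytosolic acetyl-CoA from citrate for both pathways, was higher in microglia, at 568 ± 33.04 CPM in TGFB1 microglia, against 194 ± 16.6 CPM in TGFB1 non-microglia, and 541 ± 56.6 CPM in GFP microglia, against 195 ± 6.91 CPM in GFP non-microglia (log2 fold change 1.55 ± 0.11 and 1.47 ± 0.11, edgeR). Elovl1, the elongase of very long saturated chains, was also higher, by 2.30 ± 0.12 in TGFB1 retinas and 2.50 ± 0.12 in GFP retinas on the log2 scale. Elovl5 and Fads2, an elongase and a desaturase of polyunsaturated fatty acids, were lower. Fads2 had 3.96 ± 2.65 CPM in TGFB1 microglia, against 127 ± 15.3 CPM in TGFB1 non-microglia, and 5.59 ± 3.16 CPM in GFP microglia, against 141 ± 2.93 CPM in GFP non-microglia. Its log2 fold change was -5.14 ± 0.34 in TGFB1 retinas and -4.70 ± 0.31 in GFP retinas, and that of Elovl5 was -1.81 ± 0.10 and -1.87 ± 0.10.

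Of 5 genes of the liver X receptors, which sense oxysterols and induce Srebf1 in mammals, 2 were higher and 2 lower in microglia in each treatment. Over all genes tested the shares were 30.8% and 34.4% in TGFB1 retinas, and 29.9% and 34.2% in GFP retinas. Lpcat3, a phospholipid acyltransferase, had log2 fold changes of 1.98 ± 0.14 and 1.80 ± 0.14 in TGFB1 and GFP retinas, and Mylip, a ligase that degrades lipoprotein receptors, 1.91 ± 0.40 and 2.02 ± 0.40. Abcg1, a sterol exporter, was lower, at -1.04 ± 0.27 and -1.62 ± 0.27. The receptor gene Nr1h3 had 0 to 2 counts in TGFB1 microglia libraries, against 21 and 22 in TGFB1 non-microglia, and 0 to 11 in GFP microglia, against 15 and 18 in GFP non-microglia. It is 1 of the 2 lower calls, but it failed the filter within microglia and was tested only through the non-microglia, so its call supports nothing.

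Among the 14 microglia libraries, the spread between libraries was above counting error for 25 of the 28 genes in TGFB1 microglia and 26 in GFP microglia. These compare point values over 7 libraries a group, without a test, and no share over all genes is given. Some margins were small. Sc5d varied by 8.95% in TGFB1 microglia, against 8.85% from counting alone, and Lss by 11.4% in GFP microglia, against 10.9%. Cyp51 had a coefficient of variation of 9.45% in TGFB1 microglia and 14.4% in GFP microglia, where counting alone would give 6.45% and 6.14%. Insig1 had 4.65% in TGFB1 microglia, the lowest of the 28, and 28.9% in GFP microglia. GFP microglia replicate 2 had the lowest sum of the 18 cholesterol enzymes, 918 CPM, against 1005 CPM or more in the other 13 microglia libraries. The same library had the highest bipolar marker sum of the microglia, 197 CPM, and a Müller marker sum of 999 CPM. Without GFP microglia replicates 2 and 5, chosen after seeing the data, 13 genes were higher and 7 lower in GFP microglia than in GFP non-microglia.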

How the data were processed

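The libraries are polyA RNA-seq of sorted retinal cells made with a modified Smart-Seq2 protocol, per the labels' protocols. The deposited values are raw counts, with Ensembl gene IDs in rows and libraries in columns. STAR, featureCounts, DESeq2 and the build GRCm38.p6 are named, per the submitters' processing notes; versions, annotation release and strand setting were not given in the sources used here. Of 54532 gene IDs, 54495 matched GENCODE M21, which gave the symbols.

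The counts were tested as deposited with edgeR 4.0.16 (R 4.3.3, limma 3.58.1): TMM factors, the filterByExpr filter on low counts, quasi-likelihood F tests with robust dispersion, and Benjamini-Hochberg adjustment over all genes tested, with a threshold of 0.05. TGFB1 against GFP was fitted within each fraction. The fractions, and the difference of the TGFB1 effects, were fitted on all 18 libraries as 4 groups. The standard error is the log2 fold change over the root of F, and intervals are 95%. Count totals per library were 1582451 to 3044182 in TGFB1 microglia, 1766307 to 3064027 in GFP microglia, 2378669 to 2392931 in TGFB1 non-microglia and 2318212 to 2604930 in GFP non-microglia.

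Alternatives were RLE size factors, no filter, no robust dispersion, DESeq2 1.42.0, other sets of libraries in the fit, a replicate block, covariates for Müller glia markers, Xist and replicate range, and each library left out. Library totals without scaling factors, and leaving out GFP microglia replicates 2 and 5 together, were added after seeing the data. All 28 genes are named, and up to 4 called genes with the smallest p in each wider list and comparison, of which 1 is not reported here. The 28 genes, the wider lists and the markers were chosen with earlier results of these data known. The fitting code was tested on simulated data.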

Additional observations from a re-analysis of the deposited data

Results flagged for a closer look

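Within the 2 microglia groups of 7 libraries, 5 of 56 sets of values had 1 library far from the others; the gap to the nearest library was above Dixon's 95% limit for 7 values, as a share of the range. Chance alone marks about 1 in 20 such sets. In TGFB1 microglia, Lss was at 44.8 CPM in replicate 5, against 29.5 to 34.2 CPM in the other libraries, and Acat2 was at 10.2 CPM in replicate 7, against 14.8 to 17.9 CPM. In GFP microglia, replicate 2 had Fdps at 45.9 CPM, against 62.8 to 71.3 CPM in the others, and Msmo1 at 74.2 CPM, against 122 to 151 CPM. GFP microglia replicate 5 had Insig1 at 35.3 CPM, against 99.97 to 118 CPM in the others. Those GFP libraries also had the highest Müller glia marker sums of the 14 microglia libraries, 999 CPM in replicate 2 and 1027 CPM in replicate 5, and the part of this in their values was not tested.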

How the results depend on the processing

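For TGFB1 against GFP in microglia and in non-microglia, and for the difference of those effects, each setting run called 0 of the 28 genes, DESeq2 included. Over all genes, 26 higher and 8 lower calls in microglia became 11 to 41 and 4 to 25 under other settings and 10 to 26 and 5 to 14 without single libraries. In non-microglia, 46 and 7 became 4 to 89 and 0 to 20, and 22 to 87 and 6 to 33 without single libraries. For the difference of the effects, 0 higher and 2 lower became 0 to 3 and 1 to 9. Between fractions, library totals gave 13 lower in GFP retinas and 6 higher and 14 lower in TGFB1 retinas, and reversed Fdft1 in TGFB1 retinas to -0.11; these totals leave out the TMM factors, and the cause was not tested. Over all genes they gave 3119 higher and 7531 lower in GFP retinas and 3232 and 7363 in TGFB1 retinas, against 4585, 5245, 4723 and 5264 with TMM factors in that order. Leaving out 1 library gave 10 to 12 higher and 5 to 8 lower in GFP retinas and 7 to 11 higher and 4 to 8 lower in TGFB1 retinas. With DESeq2, 10 were higher and 9 lower in GFP retinas, and 8 and 7 in TGFB1 retinas. Same-numbered microglia libraries had deviations correlated by -0.12 to 0.22 in 7 pairs, 5 of them over 0.1, and 2 of 7 matched best with their own number; the non-microglia value was -0.07. Not every pair passed 0.1 and the labels tie no number to an animal or day, so the fits reported here are unpaired. As a hint from the data, Xist was found in both or in neither library of all 7 microglia pairs. Fdft1 and Fasn were each lower with TGFB1 in 7 of 7 same-numbered pairs. The other genes ranged from 1 of 7 (Hsd17b7 and Scd1) to 6 of 7 (Hmgcs1 and Srebf1). Among the 28 genes, Fdft1 and Fasn had the smallest unadjusted p in these same libraries, so their pair directions are no separate support. The share of all genes at 7 of 7 is not given. With the number as a replicate block, edgeR gave Fdft1 a log2 fold change of -0.29 ± 0.09 (adjusted p = 0.23) and Fasn -0.28 ± 0.10 (adjusted p = 0.413), 0 of the 28 genes were called, and over all genes 41 were higher and 19 lower in microglia and 89 and 20 in non-microglia. No paired analysis was possible between fractions because too few replicate numbers occur in both.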
